A study of Desmophyllum pertusum with 36 samples.

Results

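Transcript levels were compared between colonies at low pH in polyps of Lophelia pertusa (also named Desmophyllum pertusum): colony 4 was compared with colony 3, both held at pH 7.6. All transcripts with 10 or more counts in 3 or more of the 6 libraries were members, which kept 51487 of the 75743 transcripts in the deposited table. The groups were colony 4 at pH 7.6 and colony 3 at pH 7.6, each with 1 library at week 2, week 4.5 and week 8.5 (n = 3), and libraries of the same week were paired. Fragments of the same colonies, and of colony 1, were also kept at pH 7.9, the level that the lower pH was set against in the study, and gave 12 further libraries together with colony 1 at pH 7.6. Each colony is described by the submitters as genetically distinct, so each stands for a single genotype, and the 3 libraries of a colony are samples of that colony at different weeks. Whether fragments had tanks of their own is not stated in the labels, so the p-values measure the spread between these libraries and the comparison is of these colonies, not of coral genotypes in general.

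Lophelia pertusa is a stony coral without algal symbionts that builds reefs in cold, dark water, and its polyps live on captured food. Stony corals deposit an aragonite skeleton from a fluid beneath the tissue, and they raise the pH of that fluid above that of seawater by pumping ions, work that becomes harder as seawater pH falls. A coral polyp of a colony is a clone of the others in it, so transcript differences between colonies can hold both differences in transcript level and differences in sequence, and RNA counts do not separate these. A transcript at 0 counts in a library may be absent there or may carry a sequence that its reads did not match. The transcripts are numbered and the table pairs them with no gene names, so no gene functions, pathways or cell types are given.

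The 6 libraries held 20097824, 25135503 and 24462490 counts in colony 4 and 23845334, 20986345 and 23214599 counts in colony 3, at weeks 2, 4.5 and 8.5. Each library was the sum of 2 sequencing lanes. In the week 2 library of colony 4 the lanes were uneven, with 16433031 and 3664793 counts, and 11 transcripts differed between its lanes beyond sampling noise. The mean chi-square per transcript between the lanes of that library was 1.31, where sampling noise alone gives about 1. This mean was 0.986 to 1.07 in the other libraries of the comparison. In the week 2 library of colony 3, 13 transcripts differed between the lanes, and in the other 4 libraries 0 did. The week 2 libraries also had the outlying scaling factors by the trimmed mean of M values (TMM), 1.17 in colony 4 and 0.817 in colony 3, against 0.964 to 1.04 in the other 4 libraries. Levels are given in CPM, with each library brought to the same total by its size and TMM factor.

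The pH 7.6 libraries were in general more alike within a colony than between the colonies, though the correlations within colony 3 and between the colonies overlapped. Spearman's correlation of log2 CPM across the 51487 transcripts was 0.939 to 0.945 between the 3 libraries of colony 4, 0.88 to 0.901 between those of colony 3, and 0.799 to 0.884 between a library of colony 4 and one of colony 3. Counts of on-off transcripts, at 100 counts or more on one side of a pair of libraries and at 0 on the other side, were 2 to 3 within colony 4, 4 to 12 within colony 3 and 70 to 143 between the colonies, with a median of 91 over the 9 pairs.

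The pH 7.9 libraries labelled colony 3 did not resemble the pH 7.6 libraries of colony 3. They differed from them by 27 to 119 such transcripts, with a median of 65. The pH 7.9 library labelled colony 3 at week 2 differed from the pH 7.6 libraries of colony 4 by 1 to 2 such transcripts, with correlations of 0.909 to 0.962. The pH 7.9 libraries labelled colony 1 at weeks 4.5 and 8.5 differed from the pH 7.6 libraries of colony 3 by 0 to 20. The colony 4 libraries differed by 0 to 6 such transcripts between pH 7.6 and pH 7.9. The counts alone cannot tell which of these libraries carry the colony of their label. The comparison at pH 7.6 uses none of the pH 7.9 libraries, apart from an alternative fit of all 18.

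At pH 7.6, 4257 of the 51487 transcripts (8.27%) differed between the colonies at an adjusted p below 0.05, with 2068 (4.02%) higher and 2189 (4.25%) lower in colony 4. Test and adjustment were edgeR's quasi-likelihood F test with week as a block and the Benjamini-Hochberg method over all 51487 transcripts. The direction was nearly even, and the median log2 fold change of colony 4 over colony 3 over all transcripts was 0.033. Among the called transcripts the median size was 2.82 on the log2 scale and the smallest 1.23, which reflects in part that with 3 libraries per colony only large differences could pass. Of the 4257, 3291 (77.3%) were at least 4-fold and 1198 at least 16-fold. Among the 2836 called transcripts with 10 or more counts in libraries of both colonies, the median size was 2.27, with 1870 (65.9%) at least 4-fold and 225 at least 16-fold. Over all 51487 transcripts, called or not, the median size was 0.499 and 4144 (8.05%) were at least 4-fold. The called transcripts had the same direction at all 3 weeks in 4255 cases. That was so for 21503 (41.8%) of all transcripts, and the test itself favours a constant direction.

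Tested against a minimum difference of 2-fold (edgeR's glmTreat), 2268 transcripts (4.4%) differed by more than that at an adjusted p below 0.05. Of these, 1086 (2.11%) were higher and 1182 (2.3%) lower in colony 4. The transcripts called higher took 5.17, 5.03 and 5.25% of all counts in colony 4 and 0.763, 1.25 and 1.03% in colony 3 at weeks 2, 4.5 and 8.5. The transcripts called lower took 1.24, 0.888 and 0.742% in colony 4 and 4.39, 3.71 and 3.88% in colony 3. These shares describe lists chosen on the same libraries and were not tested. The count of calls rested in part on single libraries, and fell to 2598 without the week 8.5 library of colony 4.

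**Figure D1:**
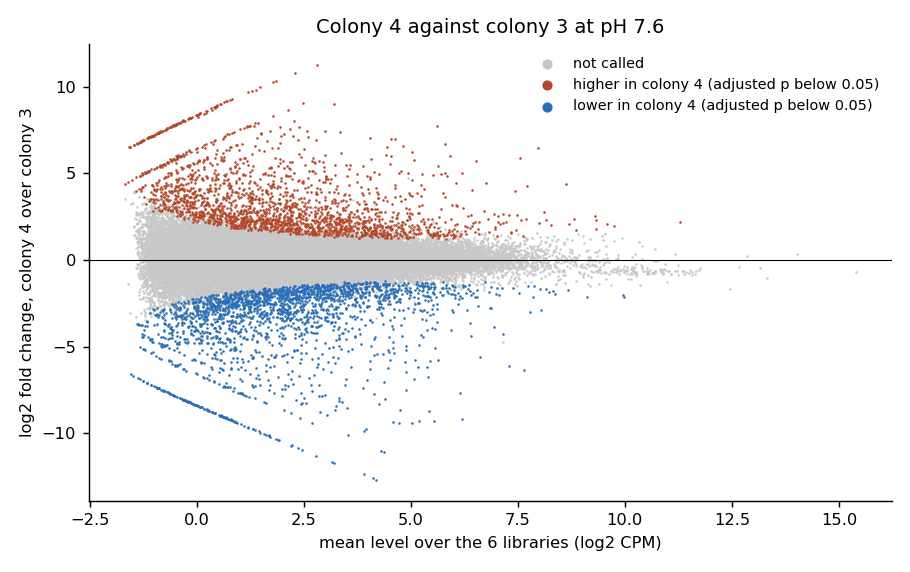
Log2 fold change of colony 4 over colony 3 at pH 7.6 (vertical axis) against the mean level over the 6 libraries in log2 CPM (horizontal axis), with 1 point for each of the 51487 transcripts; 2068 are coloured as higher and 2189 as lower in colony 4, the rest are grey. Called transcripts lie on both sides at all but the highest levels, and the straight bands at the outer left edges are transcripts without counts, or with few, in one of the colonies.

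Transcripts were called in all parts of the range of levels, and the median size of the log2 fold change, called or not, was larger at lower levels. The 51487 transcripts were cut into 4 near-equal parts by mean level (CPM, not corrected for transcript length). From the lowest to the highest part, 8.44, 9.78, 8.48 and 6.37% of transcripts were called, and the median size of the log2 fold change was 0.707, 0.566, 0.441 and 0.374. The parts include 1261 transcripts that passed the count minimum through colony 4 alone and 985 through colony 3 alone. These had to be low in the other colony, and 57.3 and 70.9% of them were called. Counting error also weighs more at few counts, so these values do not show how true differences vary with level. Among the 20 transcripts with the highest mean CPM, 1 was called, higher in colony 4. Their log2 fold changes ran from -1.68 to 2.16 with a median size of 0.674. Together those 20 took 7.57, 14.5 and 13.1% of the counts in colony 4 and 16.9, 13.2 and 14.4% in colony 3, so that at week 2 the share in colony 4 was the lowest of the 6 libraries and that in colony 3 the highest.

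Most members were found in both colonies. Of the 51487 transcripts, 39074 (75.9%) had 10 or more counts in all 6 libraries, and 2072 of these were called (5.3%), 939 higher and 1133 lower in colony 4. Another 10167 (19.7%) had 10 or more counts in some libraries of both colonies, with 764 called (7.51%). The remaining transcripts passed the count minimum through the libraries of a single colony, 1261 through colony 4 and 985 through colony 3. Of these, 723 and 698 were called, but since they had to be low in the other colony to fall in these classes, their shares say nothing about how common such differences are.

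The most abundant called transcript in each direction had a moderate difference. Transcript_33432 had 2464, 4935 and 4497 CPM in colony 4 and 372, 1733 and 946 CPM in colony 3 at weeks 2, 4.5 and 8.5. Every colony 4 library was above every colony 3 library, and both colonies were lowest at week 2. The mean was 3965 ± 1319 CPM in colony 4 and 1017 ± 684 CPM in colony 3 (SD, n = 3 each), and the log2 fold change was 2.16 ± 0.50 (SE, adjusted p = 0.0174 by edgeR). The call was lost without the week as block (edgeR adjusted p = 0.073), without week 4.5 (0.106) and without week 8.5 (0.242), and without any single library of those weeks (0.122 to 0.231), while the direction stayed.

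Transcript_81624 had 646, 378 and 57.9 CPM in colony 4 and 3773, 779 and 393 CPM in colony 3. It was lower in colony 4 at each week, and both colonies were highest at week 2 and lowest at week 8.5. The groups overlapped, since colony 4 at week 2 was above colony 3 at week 8.5. The mean was 361 ± 295 CPM in colony 4 and 1648 ± 1850 CPM in colony 3 (SD, n = 3 each), and with week as block the log2 fold change was -2.13 ± 0.50 (SE, edgeR adjusted p = 0.0194). The adjusted p was 0.221 without the block, 0.0518 without week 4.5, 0.279 without week 8.5 and 0.115 in a fit of all 18 libraries. It was 0.0588 without the week 4.5 library of colony 4, 0.225 without its week 8.5 library and 0.228 without the week 8.5 library of colony 3.

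The differences in presence were sharper. Transcript_3360 had 436, 349 and 211 counts in colony 4 and 0, 0 and 0 counts in colony 3 at weeks 2, 4.5 and 8.5. That was 18.6, 14.4 and 8.48 CPM in colony 4. The level was at least 99.1-fold higher than in colony 3, where 0 counts allow up to 3 per library or 0.14 CPM on average. The limit covers counting error only. Transcript_3360 was chosen for its 0 counts in colony 3, so no p-value from these libraries is given. In libraries that the comparison did not use, Transcript_3360 had 338, 210 and 191 counts in colony 4 at pH 7.9 and 226, 2 and 1 counts in the libraries labelled colony 3 at pH 7.9.

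Transcript_57389 had 0, 0 and 0 counts in colony 4 and 668, 743 and 958 counts in colony 3. In colony 3 that was 34.4, 34.8 and 39.7 CPM. Colony 4 was thus at least 292-fold lower (same limit of 3 counts per library, 0.124 CPM on average). Transcript_57389 was likewise chosen for its 0 counts in colony 4, and no p-value is given. At pH 7.9 it had 13, 5 and 1 counts in colony 4 and 7, 13 and 0 counts in the libraries labelled colony 3. In colony 1 it had 1, 0 and 0 counts at pH 7.6 and 0, 652 and 747 counts at pH 7.9. The libraries with 652 or more counts were thus the 3 of colony 3 at pH 7.6 and the 2 labelled colony 1 at pH 7.9 of weeks 4.5 and 8.5.

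**Figure D2:**
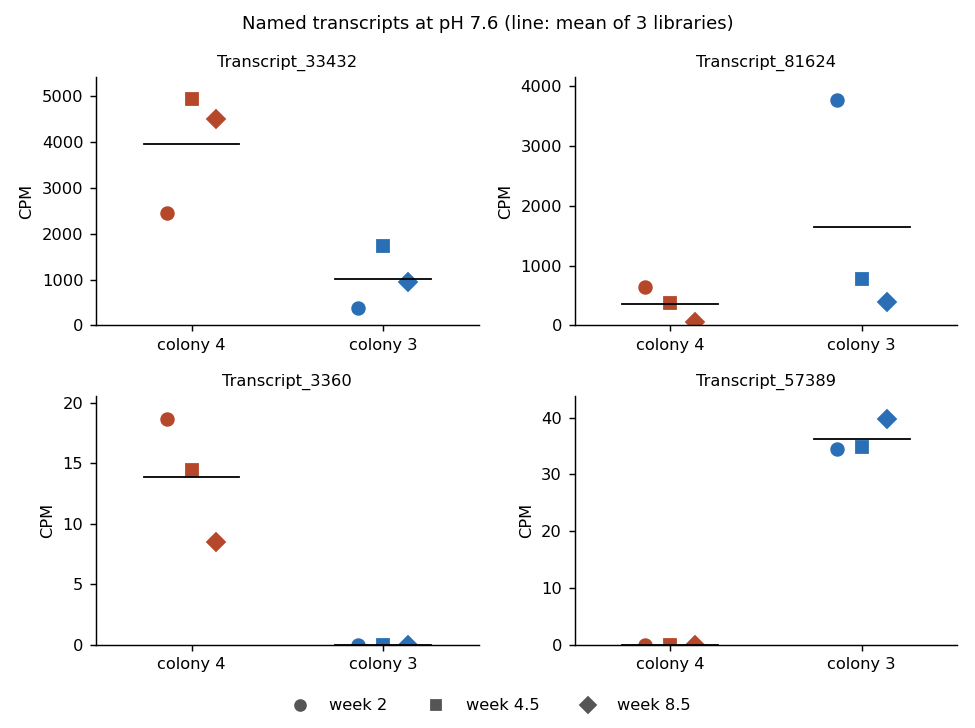
Level in CPM (vertical axis, linear, from 0) of the 4 named transcripts in colony 4 and colony 3 at pH 7.6, with 1 point for each library, a marker for each week and a line at the mean of 3 libraries. Transcript_33432 and Transcript_3360 are higher in all colony 4 libraries, Transcript_57389 is at 0 in all of them, and for Transcript_81624 the week 2 value of colony 3, 3773 CPM, stands far above the rest.

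Transcripts present in a single colony were counted with a fixed minimum. With at least 100 counts in all 3 libraries of a colony and 0 in all 3 of the other, 3 transcripts were found in colony 4 alone and 12 in colony 3 alone. With at least 30 counts there were 33 in colony 4 alone and 53 in colony 3 alone. These transcripts were chosen for their difference in the 6 libraries, so no test on those libraries is given for them. The minimum was thus what set these numbers, and allowing up to 2 counts per library in the lower colony gave 17 and 27 at the minimum of 100.

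The 33 and 53 transcripts were then followed into the 12 libraries that had not served to choose them. Of the 33 found in colony 4 alone, 32, 32 and 32 had 10 or more counts in colony 4 at pH 7.9 at weeks 2, 4.5 and 8.5, and 33, 11 and 11 had them in the libraries labelled colony 3 at pH 7.9. In colony 1 they numbered 12, 12 and 11 at pH 7.6 and 11, 1 and 2 at pH 7.9. Of the 53 found in colony 3 alone, 2, 7 and 0 had 10 or more counts in colony 4 at pH 7.9, and 1, 32 and 29 in the libraries labelled colony 3 at pH 7.9. In colony 1 they numbered 30, 29 and 31 at pH 7.6 and 29, 53 and 53 at pH 7.9. The presence pattern of colony 4 at pH 7.6 was therefore close to that of colony 4 at pH 7.9 and of the week 2 library labelled colony 3 at pH 7.9. The pattern of colony 3 at pH 7.6 was close to that of the week 4.5 and week 8.5 libraries labelled colony 1 at pH 7.9. In these numbers the week 4.5 and week 8.5 libraries labelled colony 3 at pH 7.9 were close to colony 1 at pH 7.6.

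**Figure D3:**
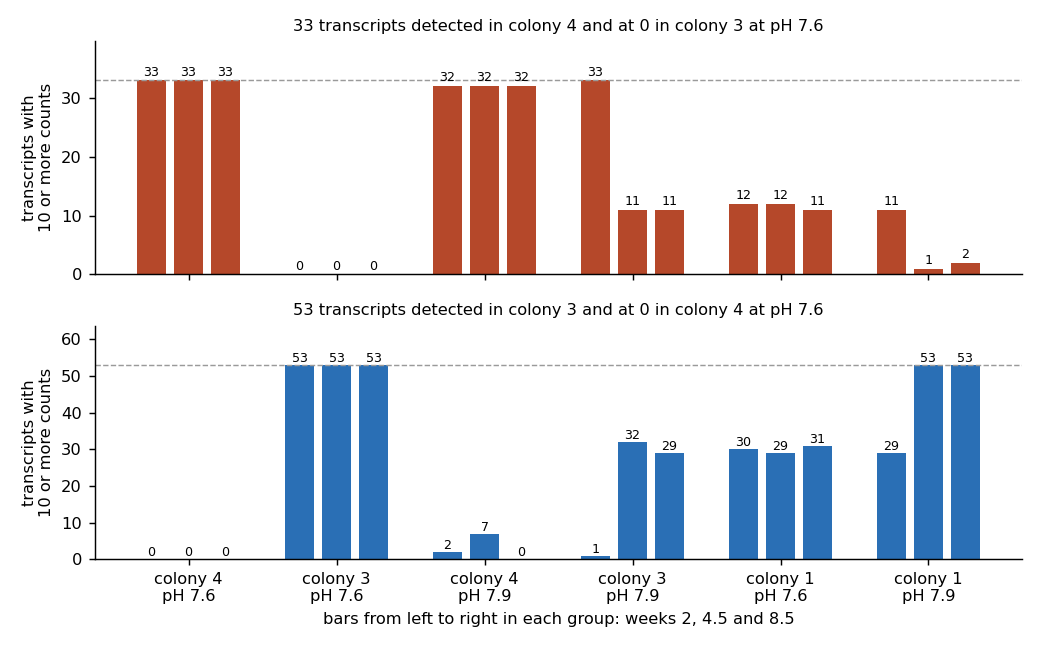
Number of transcripts with 10 or more counts in each of the 18 libraries (vertical axis), out of the 33 found in colony 4 alone (upper panel) and the 53 found in colony 3 alone (lower panel) at pH 7.6, with bars for weeks 2, 4.5 and 8.5 from left to right in each group and a dashed line at the full number. The bars of colony 4 at pH 7.6 and colony 3 at pH 7.6 are fixed by the choice of the transcripts; in the other groups, 32 of 33 are present in each colony 4 library at pH 7.9, and 53 of 53 in the week 4.5 and 8.5 libraries labelled colony 1 at pH 7.9.

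The called lists as a whole followed the same libraries. For each transcript the midpoint between the mean log2 CPM of colony 4 and of colony 3 at pH 7.6 was taken, and each library's distance from it was read. The 2068 transcripts called higher had a median distance of 1.26, 1.33 and 1.36 in colony 4 and -1.43, -1.2 and -1.43 in colony 3 at pH 7.6, which the choice of transcripts fixes. In colony 4 at pH 7.9, which did not enter that choice, they had 1.31, 1.17 and 1.35, close to the level of colony 4 at pH 7.6. In the libraries labelled colony 3 at pH 7.9 they had 1.26 at week 2 but -0.177 and -0.0719 at weeks 4.5 and 8.5.

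The 2189 transcripts called lower mirrored this. Their median distance was -1.06, -0.833 and -1.13 in colony 4 at pH 7.9, and -1.14, 0.108 and -0.0702 in the libraries labelled colony 3 at pH 7.9. In colony 1 at pH 7.6 the medians of both lists lay near the midpoint, between -0.137 and -0.005. In the libraries labelled colony 1 at pH 7.9 the higher list had -0.128, -1.01 and -0.319 and the lower list -0.0613, 1.25 and 0.802, so at weeks 4.5 and 8.5 these libraries lay on the side of colony 3. Over all 51487 transcripts the median distance was 0.00574 to 0.0445 in the 18 libraries.

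**Figure D4:**
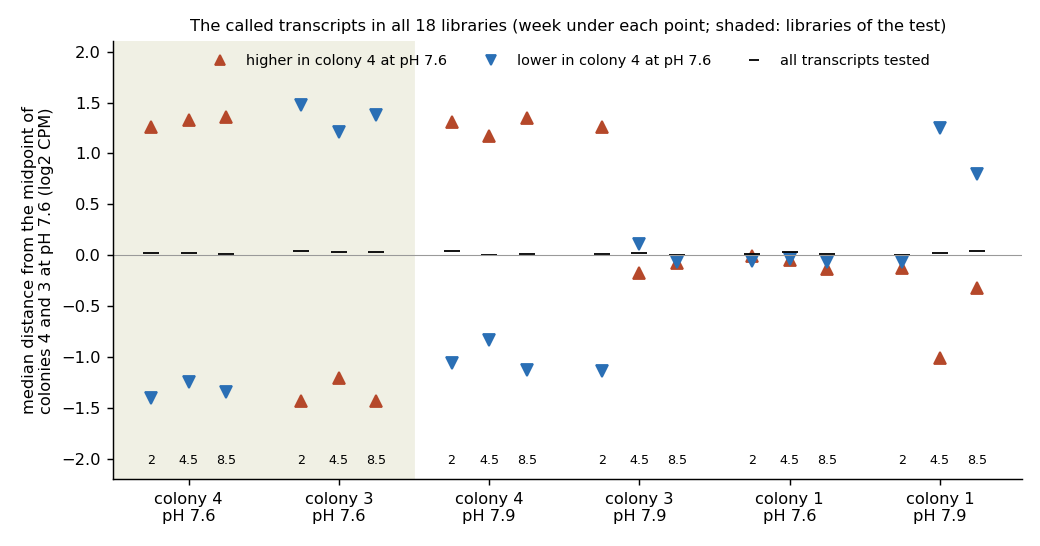
Median distance, in log2 CPM, of the transcripts called higher (upward triangles, 2068) and lower (downward triangles, 2189) in colony 4 from the midpoint of colonies 4 and 3 at pH 7.6, in each of the 18 libraries; dashes give all 51487 transcripts, the number under each point is the week and the shaded part holds the 6 libraries that chose the lists. The colony 4 libraries at pH 7.9 repeat the separation (1.17 to 1.35 and -0.833 to -1.13), whereas the libraries labelled colony 3 at pH 7.9 take the side of colony 4 at week 2 and lie near 0 later.

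Each week was also read alone, as a single pair of libraries without a test. The colony 4 over colony 3 ratio was at least 2-fold in either direction for 44.1% of the transcripts at week 2 (22727), 22.4% at week 4.5 (11518) and 32.8% at week 8.5 (16873). The median size of the log2 ratio was 0.866, 0.468 and 0.651 at these weeks. The ratios of different weeks were related, with Pearson's r across the 51487 transcripts of 0.532 between weeks 2 and 4.5, 0.511 between weeks 2 and 8.5 and 0.652 between weeks 4.5 and 8.5. Transcripts of a pair share their libraries and are not independent, so r is a description. For the transcripts called higher the median log2 ratio was 2.72, 2.46 and 2.73 at weeks 2, 4.5 and 8.5, and for those called lower -2.78, -2.37 and -2.63. These medians are a description, since the test that chose the transcripts favours ratios that are alike over the weeks.

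Fewer transcripts were called between weeks than between colonies, but the tests differ in power. Each week had 1 library from each colony, against 3 libraries for each colony, so the counts do not compare sizes of effect. With colony as a block, 57 of the 51487 transcripts (0.111%) differed between the 3 weeks (edgeR's quasi-likelihood F test, adjusted p below 0.05). Between week 8.5 and week 2, 99 differed (0.192%), 6 higher (0.0117%) and 93 lower (0.181%) at week 8.5. This split was not kept without the week 2 library of colony 4, where 1828 were higher and 1588 lower. Single libraries of colony 3 lay further apart over the weeks than those of colony 4. In colony 4, 16.7% of transcripts changed at least 2-fold between weeks 2 and 4.5, 16.8% between weeks 2 and 8.5 and 13.4% between weeks 4.5 and 8.5, against 31.3, 34.5 and 29.7% in colony 3. The standard deviation of log2 CPM over the 3 weeks had a median of 0.362 in colony 4 and 0.578 in colony 3, and was larger in colony 3 for 36685 transcripts (71.3%). Whether that difference in spread exceeds what 1 library in each colony and week would give could not be tested.

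The week counts rested on single libraries. The count over the 3 weeks was 3864 without the week 2 library of colony 4 and 1704 without that of colony 3, against 92 to 188 without any one of the others, and 0 without a colony term in the fit, where 1359 had an unadjusted p below 0.05. The count for week 8.5 against week 2 was 3416 and 315 without those week 2 libraries, 178 without either week 4.5 library, and 43 and 58 without the week 8.5 library of colony 4 and of colony 3. The week changes of the colonies were related between weeks 4.5 and 8.5 (Pearson's r across transcripts of 0.367) and not where week 2 entered, with r of -0.0383 between weeks 2 and 4.5 and -1.73e-05 between weeks 2 and 8.5. The uneven lanes and outlying TMM factors given above belong to these week 2 libraries, and their part in this was not tested.

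The transcripts named for the weeks were chosen for a change of the same sign between weeks 2 and 8.5 in both colonies. Transcript_2091 had 0.171, 0.621 and 12.7 CPM in colony 4 and 1.13, 0.422 and 21.5 CPM in colony 3 at weeks 2, 4.5 and 8.5. It was high at week 8.5 alone in each colony, and week 8.5 over week 2 gave 4.87 ± 0.72 on the log2 scale (SE, adjusted p = 0.022 by edgeR). Without the week 8.5 library of colony 3 the adjusted p was 0.0563, and without a colony term it was 1. The week 2 values were 4 counts in colony 4 and 22 counts in colony 3, so the size of the fold change rests on few counts. At pH 7.9 this transcript stayed between 0.604 and 1.46 CPM in all 9 libraries, while in colony 1 at pH 7.6 it had 1.13, 0.971 and 19.4 CPM.

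Transcript_1136 had 64.4, 3.19 and 0.241 CPM in colony 4 and 126, 12.7 and 0.331 CPM in colony 3 at weeks 2, 4.5 and 8.5. It was lower at each later week in each colony, and the log2 fold change of week 8.5 over week 2 was -8.33 ± 0.66 (SE, edgeR adjusted p = 0.000989, and 1 without a colony term). The week 8.5 values were 6 counts in colony 4 and 8 counts in colony 3, so the size of the fold change rests on few counts. In colony 1 at pH 7.6 Transcript_1136 had 79.2, 9.97 and 1.48 CPM. At pH 7.9 it had 25.8, 86.6 and 12.4 CPM in colony 4 and 44.4, 47.6 and 3.81 CPM in the libraries labelled colony 3.

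**Figure D5:**
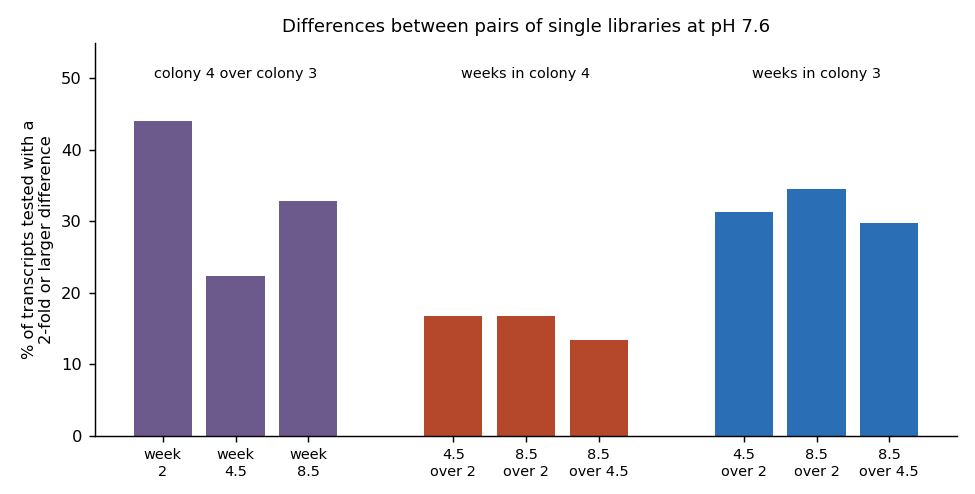
Share of the 51487 transcripts, in percent (vertical axis, from 0), with a 2-fold or larger difference between single libraries at pH 7.6: colony 4 over colony 3 at each week, and later over earlier week within colony 4 and within colony 3. The colony 3 bars for weeks, 29.7 to 34.5%, are higher than the colony 4 bars, 13.4 to 16.8%, and reach the range of the differences between colonies, 22.4 to 44.1%.

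The same comparison by label at pH 7.9 gave no calls with all 3 weeks. In edgeR's quasi-likelihood test, 0 of 49297 transcripts (0%) passed an adjusted p below 0.05, with 6752 at an unadjusted p below 0.05, and limma-voom called 0 and DESeq2 929. Without week 2, where the library labelled colony 3 resembled colony 4, 12166 were called, 6591 higher and 5575 lower in colony 4. Without week 4.5 or week 8.5 the count stayed at 0.

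The transcripts called at pH 7.6 showed the same direction in the pH 7.9 pairs of weeks 4.5 and 8.5, and not in that of week 2. Of the 2068 called higher, 55.9% were higher in colony 4 at week 2, 77.0% at week 4.5 and 80.0% at week 8.5, with median log2 ratios of 0.0701, 1.07 and 1.25. Of the 2189 called lower, 56.9, 23.7 and 24.5% were higher in colony 4, with medians of 0.123, -0.933 and -0.916. Among all 51487 transcripts 53.4, 48.8 and 49.2% were higher in colony 4. The lists therefore kept their direction at weeks 4.5 and 8.5, with medians smaller in size than the weekly ones at pH 7.6. At week 2 they lay near the other transcripts. At weeks 4.5 and 8.5 the libraries labelled colony 3 lay near the midpoint described above (-0.177 and -0.0719 for the higher list, 0.108 and -0.0702 for the lower). The separation at those weeks lay with colony 4, at 1.17 and 1.35 for the higher list and -0.833 and -1.13 for the lower.

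Whether the colony difference itself changed with pH was tested as an interaction over the 12 libraries of colonies 4 and 3. In edgeR's quasi-likelihood test 608 of 54711 transcripts (1.11%) had a different colony 4 over colony 3 ratio at pH 7.6 than at pH 7.9 at an adjusted p below 0.05, with 360 (0.658%) higher and 248 (0.453%) lower at pH 7.6. The count was 1032 without week 2, where the majority turned, with 438 higher and 594 lower. It was 28 without week 8.5 and 0 without week 4.5, where 5775 had an unadjusted p below 0.05. Since the pH 7.9 libraries labelled colony 3 lie apart from those at pH 7.6 in presence and absence of transcripts, a response of colony 3 to pH and a difference in the coral material under that label cannot be told apart here.

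Transcript_10952 had 157, 85.4 and 84.6 CPM in colony 4 at pH 7.6 and 2.38, 0.552 and 0.724 CPM in colony 3 at pH 7.6. At pH 7.9 it had 124, 80.5 and 99.8 CPM in colony 4 and 209, 245 and 20.6 CPM in the libraries labelled colony 3. Colony 3 at pH 7.6 was thus the low group and the others were high, and the difference of log2 ratios, pH 7.6 minus pH 7.9, was 6.95 ± 0.95 (SE, edgeR adjusted p = 0.00597). It was 7.24 without week 2 (edgeR adjusted p = 0.0296), 5.85 without week 4.5 (0.144) and 7.69 without week 8.5 (0.0389). In the libraries labelled colony 1 at pH 7.9 Transcript_10952 had 113, 1.74 and 52.6 CPM. It was thus as low as in colony 3 at pH 7.6 at week 4.5 and not at week 8.5. Colony 1 at pH 7.6 had 78.5, 56.2 and 42.1 CPM.

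Transcript_72775 had 0.295, 0.494 and 1.31 CPM in colony 4 at pH 7.6 and 193, 77.8 and 146 CPM in colony 3 at pH 7.6. At pH 7.9 it had 3.74, 1.45 and 0.617 CPM in colony 4 and 1.96, 2.56 and 0.502 CPM in the libraries labelled colony 3. The difference of log2 ratios was -7.62 ± 1.06 (SE, edgeR adjusted p = 0.00644). It was -6.43 without week 2 (edgeR adjusted p = 0.0269), -8.29 without week 4.5 (0.136) and -8.37 without week 8.5 (0.0389). Here colony 3 at pH 7.6 was the high group, and the libraries labelled colony 1 at pH 7.9 had 0.38, 97.1 and 90.1 CPM, high at the weeks at which they resembled colony 3 at pH 7.6.

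Counts for the other pairs of colonies at pH 7.6 were of the same order or larger. Colony 4 against colony 1 gave 13055 of 51434 transcripts (25.4%) and colony 3 against colony 1 gave 5279 of 50757 (10.4%), by the same test and count minimum. Without the block the first count was 8376, and the second was 3288 without week 4.5. These comparisons share libraries with that of colonies 4 and 3. The common dispersion, edgeR's estimate of the squared relative spread between libraries that the fit leaves, was 0.159 for colonies 4 and 3, 0.0467 for colonies 4 and 1 and 0.142 for colonies 3 and 1, so a smaller count of calls does not by itself mean smaller differences.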

How the data were processed

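RNA of polyps was measured by single-end Illumina sequencing of 18 libraries in 2 lanes each, with RNA from a Qiagen kit, per the labels' protocols. The authors deposited raw read counts per transcript, 75743 transcripts in 36 columns. Per the submitters' processing notes the tools included cutadapt 1.15, FastQC, DESeq2 and Trimmomatic 0.36. Which aligner, counting program and transcript set they used was not given in the sources used here, so reads shared by near-identical transcripts, alleles or isoforms may have been split or dropped. The labels number the time points, and these were matched to weeks 2, 4.5 and 8.5 in the order of the design text.

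Lanes were summed, and compared by a chi-square test over transcripts with 50 or more counts. Transcripts with 10 or more counts in 3 or more libraries of a fit were kept, with 0.348% of counts of the 6 libraries outside. TMM scaling and quasi-likelihood F tests of edgeR 4.0.16 (R 4.3.3) were used, with colony plus week as block in the main comparison, and Benjamini-Hochberg adjustment at 0.05. Standard errors were computed as the log2 fold change over the square root of its F. Values of 6 libraries use TMM factors of those 6, and values that include pH 7.9 or colony 1 use factors of all 18. Log2 CPM used a prior count of 2. Fits that left libraries out kept the transcripts of the full fit. Limma 3.58.1 and DESeq2 1.42.0 were alternatives. The procedure was tested on simulated counts.

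Same-numbered libraries share a sampling week per the labels. Their deviations from the colony means correlated, across transcripts, at -0.129 (week 2), 0.228 (week 4.5) and 0.231 (week 8.5). Libraries of different weeks gave -0.405 to 0.201. The same-week values of weeks 4.5 and 8.5 were thus the highest, by a small margin, and that of week 2 was not. The counts did not show the pairing at all weeks, and it rests on the labels.

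Named transcripts were, per direction, the called transcript with the highest mean level and a fold change of at least 2, and the called transcript at 0 in the lower colony with the highest mean CPM in the other, both with the same sign at all weeks. For weeks and for the interaction it was the largest fold change with a mean log2 CPM of at least 1, at least 3 counts in every library and the same sign in every pair. The comparison, lists and rules were chosen with earlier results of these data known.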

Additional observations from a re-analysis of the deposited data

Results flagged for a closer look

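The colony 4 over colony 3 ratio differed between pH 7.6 and pH 7.9 by a direct test for 608 of 54711 transcripts (edgeR's quasi-likelihood F test of the interaction, adjusted p below 0.05). By the same test it differed for Transcript_10952 by 6.95 on the log2 scale (adjusted p = 0.00597) and for Transcript_72775 by -7.62 (adjusted p = 0.00644). Without week 4.5, 0 transcripts passed, while the differences stayed about as large, at 5.85 for Transcript_10952 (adjusted p = 0.144) and -8.29 for Transcript_72775 (adjusted p = 0.136). Without week 2 the count was 1032, with 438 higher and 594 lower at pH 7.6, against 360 and 248 with all weeks. The pH 7.9 libraries labelled colony 3 stand apart from its pH 7.6 libraries, and their part in the difference cannot be told apart from that of pH.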

How the results depend on the processing

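Of 21 alternatives for colony 4 against colony 3 at pH 7.6, 17 gave a count within 1.5 times 4257. The others were no filter (6898), 10 or more counts in every library (2170, fewer transcripts tested), 9 libraries at pH 7.6 (6581) and the lowest of the fits that left out libraries, which gave 2598 to 5902. DESeq2 called 5715, of which 4241 were among the 4257, and lane L002 alone 2848. Leaving out libraries gave 1737 to 2864 beyond 2-fold. In the paired analysis the replicate block was part of the main comparison, and without it 4118 were called, 3722 of them shared. The block changed the calls of Transcript_33432 and Transcript_81624 and the count for colony 4 against colony 1 (8376 without it), and moved no other count of calls by over 1.5 times. For the 3 weeks, no filter gave 1292, no colony term 0 and leaving out libraries 92 to 3864. For week 8.5 against week 2 these were 790, 0 and 43 to 3416. At pH 7.9 DESeq2 called 929, and leaving out weeks gave 0 to 12166. For the interaction DESeq2 called 1978, and leaving out weeks gave 0 to 1032. Leaving out weeks gave 8807 to 11198 for colony 4 against colony 1 and 3288 to 5383 for colony 3 against colony 1. Single libraries were left out of the fits of weeks by a choice made after seeing the data. Transcripts found in a single colony numbered 33 and 53 with a minimum of 30 counts, and 17 and 27 with up to 2 counts allowed, in place of 3 and 12. The fold changes of the 8 named transcripts kept their sign. The majority of calls turned from lower to higher for week 8.5 against week 2 without the week 2 library of colony 4 (1828 and 1588), and from higher to lower for the interaction without week 2 (438 and 594). Near-even splits also turned in some alternatives. The share higher ran from 44.15 to 51.9% for colony 4 against colony 3 at pH 7.6, and from 47.61 to 51.96% for colony 4 against colony 1. The cause of these shifts was not tested. With 3 libraries per colony, smaller differences than the called ones may go undetected.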
